A study of Mus musculus with 8 samples.

Results

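The 9 genes described here encode SOX transcription factors with roles in neural and otic progenitors, neurons and glia: Sox1, Sox2, Sox3, Sox4, Sox8, Sox9, Sox10, Sox11 and Sox21. They were picked by symbol, with earlier results of these data known, so their shares beside those of all genes are descriptions and not tests. They are 9 of 21887 protein-coding genes that RefSeq places on the autosomes and sex chromosomes of mouse GRCm38.p6 (coordinates as in mm10). The cells were iMOPs, a mouse line of immortalized multipotent otic progenitors labelled wild-type and untreated. They were either proliferating, in DMEM/F12 with B27, the growth factor bFGF at 20 ng/ml and carbenicillin at 25 µg/ml, or were neurons derived from iMOPs, in Neurobasal medium with N21, the CDK2 inhibitor K03861 at 1 µM and L-glutamine at 2 mM. Both states come from the same line, so neither stands for an animal. CUT&Tag uses an antibody to bring a transposase to its target, so that the DNA nearby is cut and tagged. It was done for CHD4, H3K4me3 and p300 in each state, with 500000 cells per library. Each antibody and state has 1 sample label and 1 peak list. The lists carry the word merged in their names, which the labels do not explain, and each was treated as 1 library.

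CHD4 is the ATPase of the NuRD complex, which remodels nucleosomes and removes acetyl groups from histones. p300 adds acetyl groups to histones at enhancers and promoters, and H3K4me3 marks the promoters of active genes. SOX proteins bind DNA through a shared HMG domain that bends the double helix. The SoxB1 factors (Sox1, Sox2, Sox3) keep neural progenitors undifferentiated, the SoxB2 factor Sox21 represses genes that SoxB1 factors activate, the SoxC factors (Sox4, Sox11) activate genes of newly formed neurons, and the SoxE factors (Sox8, Sox9, Sox10) act in neural crest, glia and the otic placode. In the inner ear Sox2 is needed for sensory progenitors, and Sox10 persists in glia.

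The lists held 4919 CHD4, 7472 H3K4me3 and 3144 p300 peaks in proliferating cells, and 4599, 5625 and 965 in neurons. Depth behind the lists is unknown, since no read counts were used. Each group is 1 list, so differences between the states stand without a test or a replicate. A site bound in fewer cells and a site bound less in every cell cannot be told apart. Peaks were collected over each gene span plus 50 kb either side, or 200 kb for Sox2, and were split into those within 1 kb of an annotated gene end, those elsewhere in the gene body and those in the flank. The strength of a peak is given as its percentile of total signal within its own list, so the weakest peak of a list is near 0 and the strongest near 100. Total signal grows with width, so strength in this sense does not separate the height of the signal from the width of the peak. Lists of different length give different percentiles to the same rank, so percentiles set side by side place a peak in each list and do not measure a change. Labels were checked by H3K4me3 at gene ends. It was listed at 4 of 7 otic progenitor markers in proliferating cells and 2 of 7 in neurons. It was listed at 2 of 13 neuron markers in proliferating cells and 3 of 13 in neurons, Elavl3 being the marker listed in neurons alone. The neuron markers Dcx, Neurod1, Elavl4, Isl1 and Rbfox3 had none in either state, and neither did any of 4 mesenchyme markers. Of 4 hair cell markers 1, Myo6, had it in both states. Over all genes H3K4me3 was listed at an end of 37.6% and 30.0%, so these counts do little to check the labels.

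Among the 9 SOX genes, 8 had CHD4 at a gene end in proliferating cells and 6 had it in neurons. Sox1, Sox2, Sox3, Sox8, Sox11 and Sox21 had it in both states, Sox4 and Sox9 in proliferating cells alone, and Sox10 in neither. Over all protein-coding genes the shares were 11.8% in proliferating cells and 9.95% in neurons. H3K4me3 was listed at an end of the same 8 genes in both states, against 37.6% and 30.0% of all genes. Among genes that carried H3K4me3 at an end, CHD4 was called at 27.1% in proliferating cells and 23.6% in neurons. It was called at 8 of 8 and 6 of 8 of these SOX genes. Of all genes with CHD4 at an end in proliferating cells, 63.7% also had it in neurons, against the 6 of 8 found here. In proliferating cells p300 was listed at an end of 6 SOX genes (8.44% of all genes), and in neurons of none (1.24%). The call at Sox11 was among the weakest of its list, at rank 3128 of 3144. The SOX genes are short, with spans of 2065 to 9578 bp. Among the 5081 coding genes in that range of length, the CHD4 shares were 13.4% and 11.3%, near those of all genes.

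**Figure D1:**
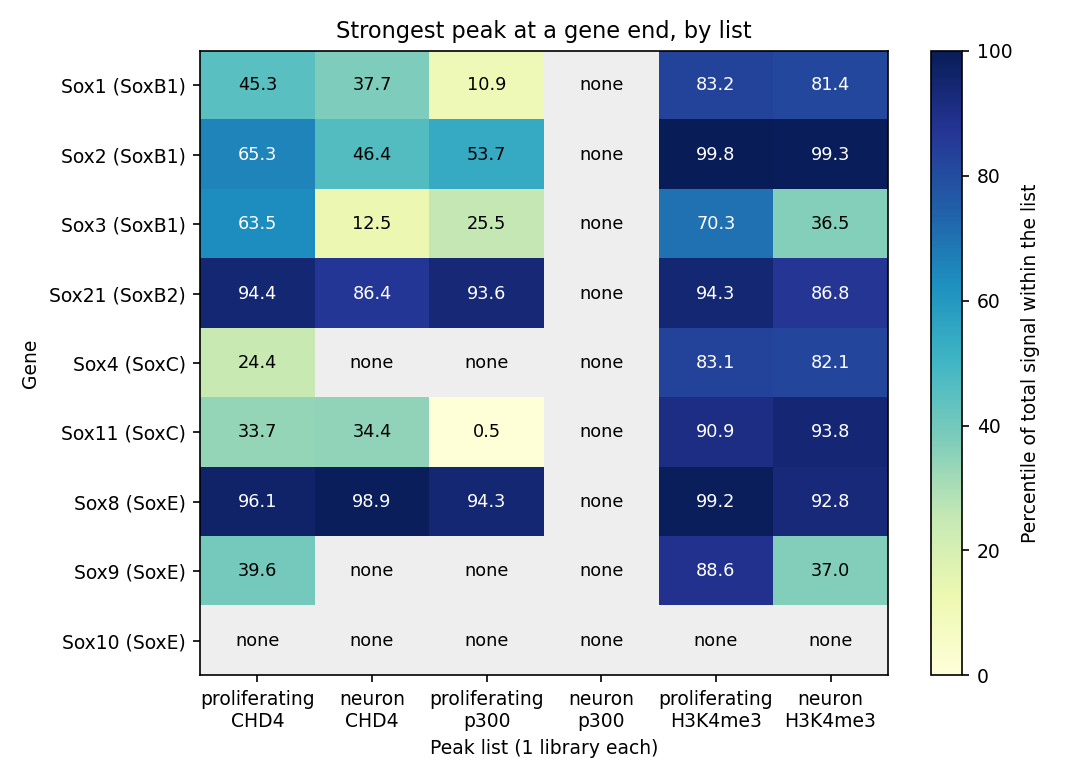
Strongest peak within 1 kb of an annotated end of each SOX gene (rows) in each of the 6 peak lists (columns, 1 library each), as its percentile of total signal within that list. Grey cells have no such peak: the neuron p300 column is empty, Sox10 is empty throughout, and Sox8 and Sox21 stand above 86 in each of the other lists.

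Within the full windows, each of the 9 genes had at least 1 CHD4 peak in proliferating cells, and all but Sox10 had one in neurons. For any peak over the gene span and 50 kb either side, the shares of all genes were 34.2% and 30.0% for CHD4, 59.6% and 51.7% for H3K4me3, and 26.9% and 7.25% for p300, in proliferating cells and neurons. The SOX genes stood at 9 and 8 of 9 for CHD4, at 9 and 9 for H3K4me3, and at 9 and 5 for p300. Their surroundings hold few other coding genes: none near Sox1, Sox2, Sox3, Sox4, Sox9 or Sox11, and 1, 1 and 3 near Sox8, Sox21 and Sox10. In all, 20 proliferating and 15 neuron CHD4 peaks fell in the windows, of which 10 and 6 lay at gene ends and the others in the flanks. Of the proliferating peaks, 16 of 20 (80.0%, exact 95% interval 56.3 to 94.3) overlapped a neuron CHD4 peak, against 66.2% of the whole list. Of the neuron peaks, 13 of 15 (86.7%, 59.5 to 98.3) overlapped a proliferating one, against 67.4%. Both intervals, which cover counting error only, hold the share of the whole list.

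Sox2, a widely used marker of otic progenitors, carried some of the widest H3K4me3 in either list (chromosome 3, 34649995 to 34652461, read from the lower to the higher coordinate). The proliferating H3K4me3 peak spanned 26300 bp, the 4th widest of 7472, and ranked 19th by total signal. The neuron peak spanned 19950 bp, the 7th widest of 5625, and ranked 39th. The mark reached from upstream of the gene to well beyond its transcript end in both states, with its highest signal 980 bp downstream of the start in proliferating cells and 1180 bp in neurons. A further H3K4me3 peak of 7800 bp, upstream of the gene from 34636851 to 34644650, was listed in neurons alone, at the 42.3rd percentile. It lies inside Sox2ot, the long non-coding RNA gene that spans Sox2, and ends 1400 bp short of the nearest proliferating H3K4me3 peak.

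By total signal, CHD4 at Sox2 had a weaker peak at the start of the gene and a stronger one downstream, in both states. The stronger peak was also the wider one. The peak at the start spanned 2850 bp at percentile 65.3 in proliferating cells and 3950 bp at percentile 46.4 in neurons, with its highest signal 520 bp and 370 bp upstream of the transcript start. The downstream peak spanned 14800 bp at the 95.6th percentile (34655051 to 34669850) in proliferating cells and 13050 bp at the 90.3rd (34654701 to 34667750) in neurons. Its highest signal fell on the same 50 bp in both states, 12280 bp downstream of the start. p300 peaked within 50 bp of that position in each state, at percentile 80.4 in proliferating cells and 43.2 in neurons. At the start of Sox2, p300 was listed in proliferating cells (53.7th percentile) and not in neurons. All of these peaks lie within Sox2ot and under the wide H3K4me3 peak, at least in part. The window of 200 kb held only 1 further CHD4 peak, listed in neurons alone at the 26.6th percentile, with its highest signal 192820 bp upstream of the start.

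**Figure D2:**
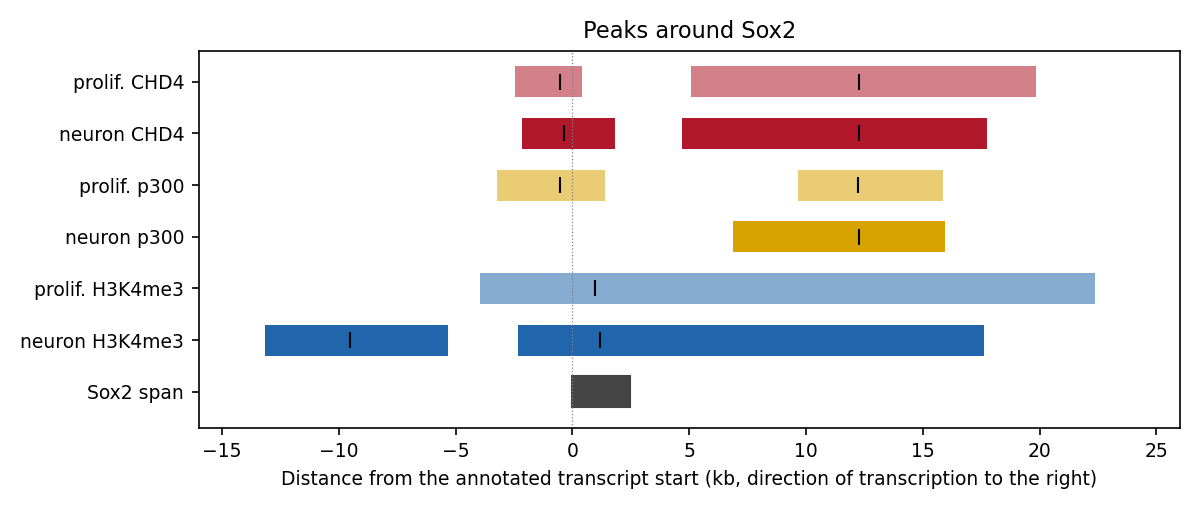
Peaks of the 6 lists around Sox2, by distance from its transcript start in kb. Bars are peaks (lighter shades for proliferating cells), black ticks the highest signal of each. CHD4 and p300 ticks line up 12280 bp downstream of the start in both states, apart from the proliferating p300 tick 50 bp away, and the p300 bar at the start is present in proliferating cells alone.

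By the 6 percentiles of the strongest gene-end peak, with 0 where there was none, the genes closest to Sox2 were Lamtor2 and Ubqln4 (distance 7.89 for both), Phf12 (8.37), Ing2 (10.3) and Cks1b (11.8). These distances are Euclidean, over 6 lists of 1 library each, and describe likeness of peak strength and nothing else. Lamtor2 and Ubqln4 have the same 6 values. At Cks1b, which encodes a partner of cyclin-dependent kinases, the CHD4 percentiles were 71.4 in proliferating cells and 49.9 in neurons, and those of H3K4me3 were 99.3 and 98.4.

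Sox1, which shares progenitor roles with Sox2, had CHD4 and H3K4me3 at its start in both states. The CHD4 peak there spanned 2200 bp at percentile 45.3 in proliferating cells and 2250 bp at percentile 37.7 in neurons, with the highest signal 106 bp downstream of the start in both. H3K4me3 stood at the 83.2nd and 81.4th percentiles. p300 at the start was a weak call in proliferating cells (10.9th percentile), peaked on the same 50 bp as CHD4, and was not listed in neurons. The second CHD4 site of the window, inside the non-coding gene Sox1ot, peaked 34756 bp downstream of the start in proliferating cells and 50 bp further in neurons. Its neuron peak was the wider one, 7400 bp against 3250 bp, and the lower one by percentile, 51.7 against 73.8. p300 covered this site in proliferating cells (44.5th percentile) and not in neurons.

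Sox3, the X-linked SoxB1 gene (60891366 to 60893430), ranked lower in neurons for both CHD4 and H3K4me3. Its CHD4 peak stood at percentile 63.5 in proliferating cells and 12.5 in neurons, although it was wider in neurons (5800 bp against 4050 bp). H3K4me3 stood at the 70.3rd and the 36.5th percentile. p300 was listed in proliferating cells at the 25.5th percentile. All peaks of the window lay at the gene, and the CHD4 signal was highest just outside its higher-coordinate end in both states, over the neighbouring non-coding gene Gm38438.

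The SoxC genes Sox4 and Sox11 each had H3K4me3 at their start in both states and a CHD4 and p300 site upstream of the start in both states, and differed in CHD4 at the start itself. At Sox11 (chromosome 12, 27334268 to 27342718, transcribed toward lower coordinates) the CHD4 peak at the start spanned 4350 bp at percentile 33.7 in proliferating cells and 4050 bp at percentile 34.4 in neurons. Its highest signal lay on the same 50 bp, 207 bp upstream of the start, in both. p300 was listed on the same 50 bp in proliferating cells, at the 0.493rd percentile, and not in neurons. At Sox4 (chromosome 13, 28948919 to 28953699, the same direction) the proliferating CHD4 peak, from 28951751 to 28955700, stood at the 24.4th percentile, and no neuron peak overlapped it. The nearest neuron CHD4 peak began 200 bp further upstream, so the call depends on where that peak was ended. With a gene-end window of 2.5 kb Sox4 counted as having CHD4 in neurons. That count comes from the edge of the same upstream peak, whose highest signal lay 6076 bp upstream of the start.

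The sequences just upstream of 3 starts are shown because the highest proliferating CHD4 signal of a peak fell within them. Each gives the 250 bases before the transcript start of a SOX gene, from RefSeq (GRCm38.p6, reverse strand, printed in the direction of transcription), and capitals mark the stretch of highest signal. It measures 100 bp at Sox4 (chr13:28953700-28953949), and 50 bp at Sox11 (chr12:27342719-27342968) and at Sox21 (chr14:118237031-118237280).
Sox4: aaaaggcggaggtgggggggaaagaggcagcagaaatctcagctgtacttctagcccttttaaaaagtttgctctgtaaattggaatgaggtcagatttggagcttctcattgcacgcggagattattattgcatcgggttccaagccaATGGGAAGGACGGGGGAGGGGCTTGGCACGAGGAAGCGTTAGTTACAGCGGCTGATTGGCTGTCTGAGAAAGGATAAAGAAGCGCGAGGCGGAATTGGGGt
Sox11: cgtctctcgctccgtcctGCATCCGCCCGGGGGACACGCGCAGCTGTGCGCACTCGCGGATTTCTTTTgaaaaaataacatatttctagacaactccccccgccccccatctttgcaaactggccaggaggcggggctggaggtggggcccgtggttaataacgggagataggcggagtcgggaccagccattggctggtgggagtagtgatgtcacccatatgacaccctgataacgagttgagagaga
Sox21: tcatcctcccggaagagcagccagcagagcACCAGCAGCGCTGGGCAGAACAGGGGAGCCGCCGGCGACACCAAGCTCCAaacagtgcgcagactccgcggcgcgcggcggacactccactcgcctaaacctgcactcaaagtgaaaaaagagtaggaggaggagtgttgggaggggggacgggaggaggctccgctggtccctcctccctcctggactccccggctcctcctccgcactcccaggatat

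The capitals end 2 bases before the start at Sox4, and begin 232 and 220 bases before it at Sox11 and Sox21. They hold 58.0%, 66.0% and 70.0% G and C and 7, 7 and 4 CpG dinucleotides. Promoter entries of 300 bases, from 250 before to 50 after the start, were found for 6 of the 9 genes, not for Sox3, Sox9 and Sox10. Their CpG counts were 37 at Sox1, 27 at Sox2, 22 at Sox21, 21 at Sox8 and Sox11 and 12 at Sox4, against a median of 13.0 over 21263 promoters of coding genes. GGGCGG, a motif bound by Sp1-type factors, was found on either strand at Sox1, Sox2, Sox8 and Sox11 and in 46.2% of all these promoters. CCAAT was found 4 times at Sox4, counting both strands, and once each at Sox1, Sox2 and Sox11, and in 38.2% of all promoters. The SOX-type hexamers ACAAAG (16.8% of all) and ACAATG (11.0%) were found once and not at all in the 6, the former at Sox2. None of the 6 had TATAAA (12.6%). A match to any of the 5 motifs is a description of the letters only.

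Upstream of both SoxC genes, CHD4 ranked higher in the neuron list. At Sox4 the upstream CHD4 peak stood at percentile 61.9 in proliferating cells and 67.5 in neurons, with the highest signal 6076 bp upstream of the start in both. At Sox11 it stood at the 56.6th percentile and the 76.6th, 14507 bp and 14457 bp upstream. p300 was listed at both sites in both states. At Sox11 its percentile was 34.0 in proliferating cells (rank 2071 of 3144) and 75.1 in neurons (rank 240 of 965). At Sox4 it was 26.6 and 2.02, so the neuron call was among the weakest of that list, at rank 946 of 965. An H3K4me3 peak over the Sox4 site was listed in proliferating cells alone, at the 31.1st percentile. H3K4me3 at the Sox11 start stood at the 90.9th percentile in proliferating cells (rank 677 of 7472) and the 93.8th in neurons (rank 349 of 5625). At the Sox4 start it stood at the 83.1st (rank 1266) and the 82.1st (rank 1006).

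**Figure D3:**
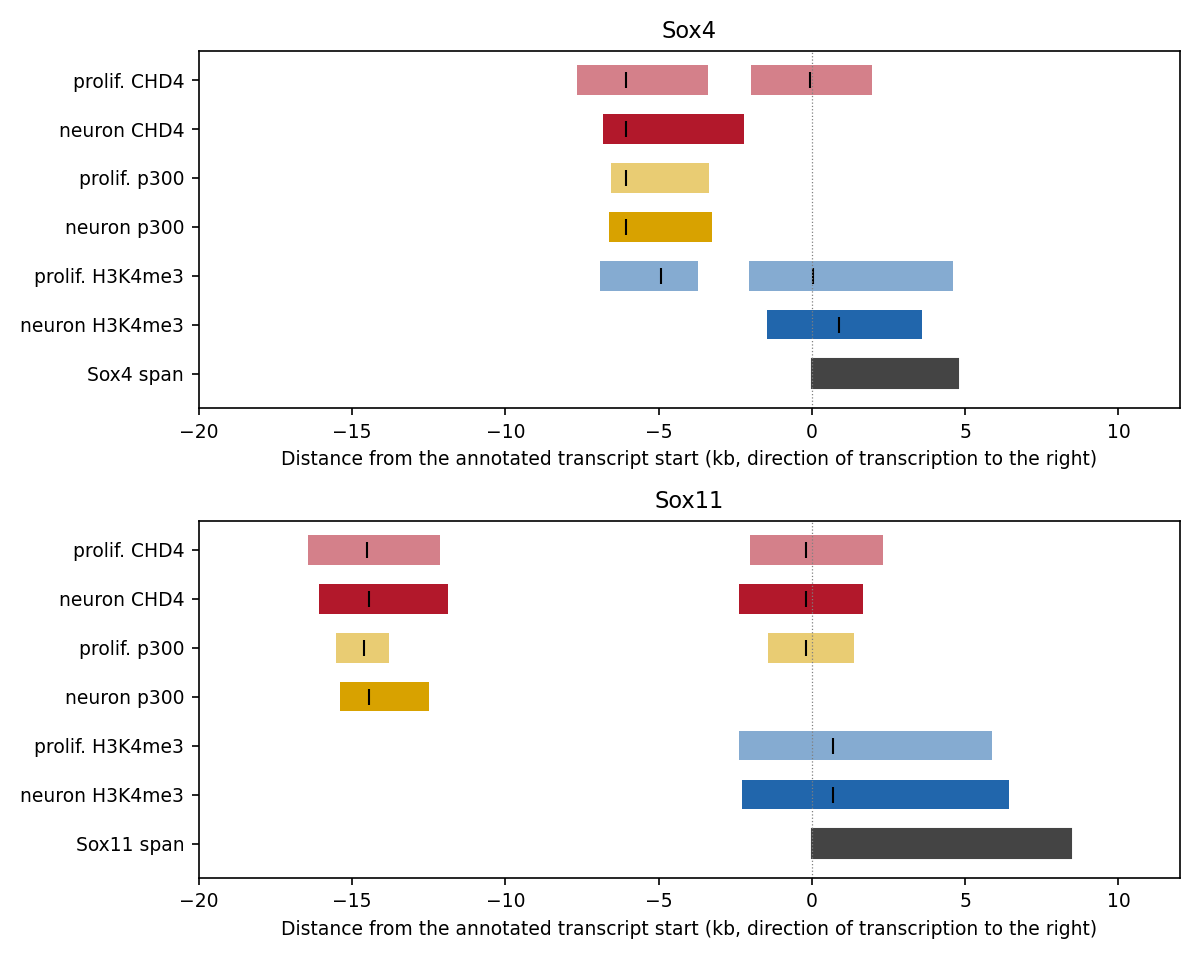
Peaks of the 6 lists at Sox4 and Sox11, by distance from the transcript start in kb with transcription to the right. Bars are peaks and black ticks their highest signal. Both genes have CHD4 and p300 upstream in both states (6076 bp at Sox4, 14457 to 14607 bp at Sox11), and CHD4 at the start is present in both states at Sox11 and in proliferating cells alone at Sox4.

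By total signal, Sox21 and Sox8 carried the strongest CHD4 of the 9 genes at their ends. Their strongest peaks were also wider than the gene-end CHD4 peaks of the other genes, so strength and width are not separated here. In neurons CHD4 formed a single wide peak at each of the 2 genes, over sites that were separate in proliferating cells. At Sox21 (chromosome 14, 118233233 to 118237030, transcribed toward lower coordinates) the stronger proliferating peak lay just past the transcript end. It spanned 5950 bp at the 94.4th percentile, and the peak at the start spanned 2250 bp at the 24.8th. In neurons 1 peak of 9400 bp at the 86.4th percentile covered the gene and overlapped both. p300 was listed past the transcript end in proliferating cells at the 93.6th percentile, with its highest signal within 100 bp of that of CHD4, and the neuron list had no p300 peak in the window. H3K4me3 lay over the gene and its start at percentile 94.3 in proliferating cells and 86.8 in neurons, with the same highest 50 bp, 145 bp upstream of the start.

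At Sox8 (chromosome 17, 25565893 to 25570686, transcribed toward lower coordinates) the neuron CHD4 peak spanned 23250 bp, from 25554751 to 25578000, and ranked 53rd of 4599. It overlapped 3 proliferating peaks of 4200, 6950 and 13050 bp, at the 32.8th, 95.3rd and 96.1st percentiles. The widest of these covered the start of Sox8 and the adjacent non-coding gene Cerox1 and reached to within 1 kb of an end of the coding gene Lmf1, so it cannot be assigned to Sox8 alone. Its highest signal lay 5039 bp upstream of the Sox8 start, on the same 50 bp as p300 in proliferating cells and in neurons. The highest signal of the neuron CHD4 peak lay 4689 bp upstream, 350 bp from that of neuron p300. The proliferating p300 peak there spanned 11250 bp at the 94.3rd percentile and reached the start, whereas the neuron one spanned 3350 bp at the 44.0th and stopped 3965 bp short of the gene. A second proliferating p300 peak, of 7000 bp at the 85.0th percentile, lay over the transcript end and beyond it, and no neuron p300 peak overlapped it. H3K4me3 spanned 15100 bp (28th widest of its list) in proliferating cells and 6450 bp in neurons, at the 99.2nd and 92.8th percentiles. The proliferating H3K4me3 peak also reached to within 1 kb of an end of Lmf1, and the neuron one did not. In neurons Sox8 thus had 1 CHD4 peak where 3 were listed in proliferating cells, with narrower H3K4me3 and p300 peaks. The widths of those 3 CHD4 peaks together come to about that of the neuron peak, so no spread of CHD4 was read from it. Further from the gene, a CHD4 peak of 7450 bp at the 60.9th percentile was listed in neurons alone, 43.6 kb from the gene on the side of its transcript end.

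Sox9, a SoxE factor of early otic and glial development (chromosome 11, 112782210 to 112787757), had CHD4 at an end in proliferating cells alone, at the 39.6th percentile over 3500 bp. The nearest neuron CHD4 peak was 24950 bp away, and with a gene-end window of 2.5 kb Sox9 still had none in neurons. H3K4me3 at that end was kept in neurons with a lower percentile, 37.0 against 88.6, and a narrower peak, 3700 bp against 4950 bp. p300 was at neither end in either state. Away from the gene, 2 CHD4 sites were listed in both states. The one whose highest signal lay 35965 bp above the lower-coordinate end of the gene in proliferating cells stood at the 91.0th percentile there and the 87.6th in neurons. It carried p300 in both states, at the 65.5th and 47.3rd percentiles. The nearer one had no p300, and its CHD4 stood at the 62.7th and 14.0th percentiles.

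**Figure D4:**
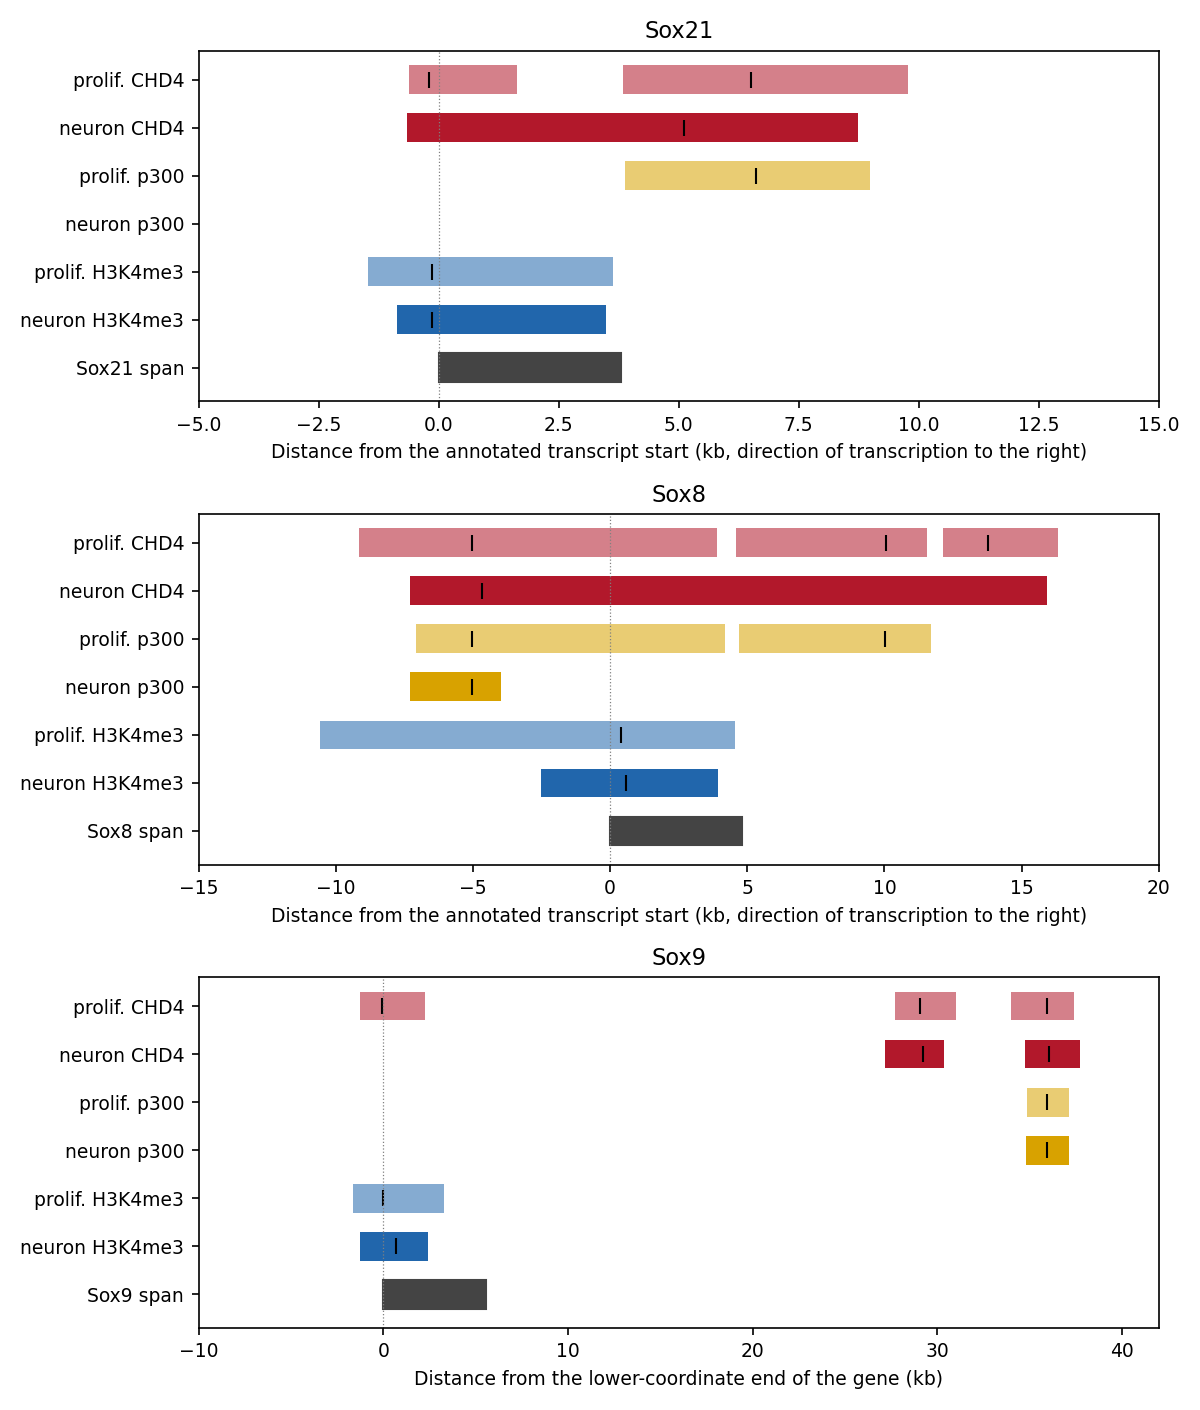
Peaks of the 6 lists at Sox21, Sox8 and Sox9, by distance in kb from the transcript start (Sox21, Sox8) or from the lower-coordinate end of the gene (Sox9). Bars are peaks and black ticks their highest signal. The neuron CHD4 bar is single and wide at Sox21 (9400 bp) and Sox8 (23250 bp), and at Sox9 the CHD4 bar at the gene is present in proliferating cells alone while the distal pair of sites is present in both.

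Sox10, which marks otic epithelium and glia, had no gene-end peak in the 6 lists. Its window held 2 CHD4 peaks in proliferating cells, at the 65.5th and 61.2nd percentiles, 27.1 and 36.2 kb beyond the higher-coordinate end of the gene and inside the non-coding gene Gm10863. Both carried p300, at the 59.1st and 54.3rd percentiles, and neither CHD4 nor p300 was listed within 100 kb of them in neurons. The H3K4me3 peaks of the window lay at Micall1 and at the ends of 1700088E04Rik and Polr2f, with their highest signal on the same 50 bp in both states, and none was at Sox10.

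At the ends of the 9 genes, p300 was listed in proliferating cells alone. The neuron list had p300 at an end of only 1.24% of all coding genes, so its absence at these 9 is near that share. All 15 proliferating and all 5 neuron p300 peaks of the windows overlapped a CHD4 peak of the same state, and 7 and 3 of them had their highest signal in the same place as CHD4. The share of all p300 peaks that overlap CHD4 was not computed. In the whole lists 2856 proliferating and 918 neuron CHD4 peaks overlapped p300, beside 3144 and 965 p300 peaks. The overlap was therefore not read as particular to the SOX windows. Of the 7 proliferating p300 peaks at gene ends 1 overlapped a neuron p300 peak, the one at Sox8 whose neuron counterpart lay in the flank. Of the 8 in flanks 4 did, at Sox2, Sox4, Sox9 and Sox11. The whole proliferating p300 list went the same way, with 12.1% of peaks at gene ends and 32.3% of the others found again. The neuron p300 list is the shorter by far, and with the proliferating one trimmed to its 965 strongest peaks p300 was left at an end of 2 SOX genes, Sox8 and Sox21, and at the downstream site of Sox2. The part of list length in the difference was not tested further.

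CHD4 peaks of the windows overlapped p300 in 15 of 20 cases (75.0%, 50.9 to 91.3) in proliferating cells and in 5 of 15 (33.3%, 11.8 to 61.6) in neurons, against 58.1% and 20.0% of the whole lists. With lists of equal length the shares were 4 of 20 (20.0%) in proliferating cells and 5 of 15 (33.3%) in neurons. The order of the states thus depended on list length, and no fall in neurons was read from it. CHD4 peaks of the windows overlapped H3K4me3 in 10 of 20 cases (interval 27.2 to 72.8%) and 7 of 15 (46.7%, 21.3 to 73.4), against 42.2% and 26.8%. Among the 16 overlapping pairs of CHD4 peaks the neuron peak was wider in 11, where the median width of the lists was 5200 bp in neurons and 3400 bp in proliferating cells. Its percentile was higher in 7 and lower in 9, and so was its rank. The highest signal of the 2 states lay within 200 bp in 11 pairs, and the other 5 were the pairs in which a wide neuron peak at Sox8 or Sox21 overlapped several proliferating ones. Those 5 pairs count the same neuron peaks more than once. In all of them the neuron peak was wider, and all but 1, at Sox21 (94.4 against 86.4), were higher in neurons by percentile. A neuron peak that takes in several proliferating sites also takes in their width and signal, so no direction was read from these 5 pairs. The other 11 pairs were about evenly split by width, and most were lower in neurons by percentile. For H3K4me3, whose lists differ more in length, the neuron peak was lower in 9 of 10 pairs by percentile and in 5 of 10 by rank, so no common direction was read from them. The 5 lower in neurons by both were Sox2, Sox3, Sox8, Sox9 and Sox21. The gap in percentile was widest at Sox9 (88.6 and 37.0) and Sox3 (70.3 and 36.5). For the 5 p300 pairs, 4 were lower in neurons by percentile and 1 by rank.

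**Figure D5:**
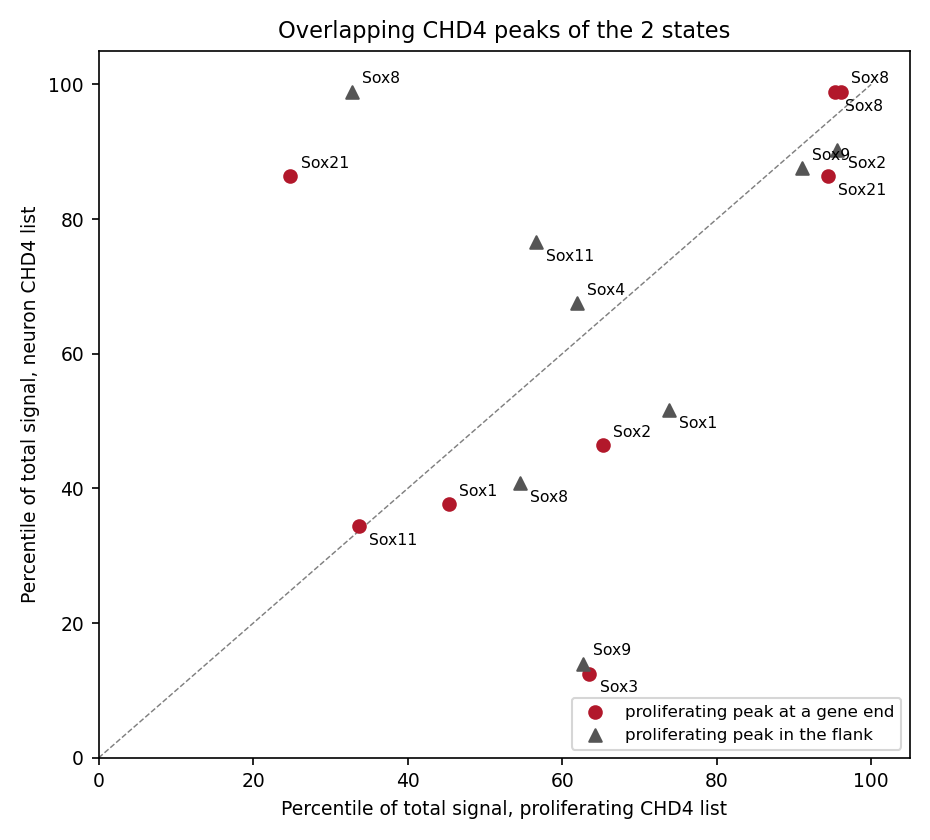
Percentile of total signal of each of the 16 overlapping pairs of CHD4 peaks, in the proliferating list (horizontal) and the neuron list (vertical), with the gene named. Circles are proliferating peaks at a gene end, triangles those in a flank, and the dashed line marks equal percentiles. Sox3 and 1 Sox9 site lie far below the line (12.5 and 14.0 in neurons), and the wide neuron peaks at Sox8 and Sox21 are drawn once for each proliferating peak they overlap.

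Genes outside the 9 give the setting. Of 11 further Sox genes, Sox12, the remaining SoxC gene, had CHD4, H3K4me3 and p300 at an end in both states, with CHD4 at the 91.8th and 85.6th percentiles. Sox18, a factor of blood vessels, had CHD4 in neurons alone (49.4th percentile) and no H3K4me3. None of the other 9 had CHD4 at an end. Of 8 partners and targets of SoxB1 factors, 4 had CHD4 in both states: Nes, a filament protein of neural progenitors, the Notch effector gene Hes5, and the POU factor genes Pou3f2 and Pou3f3. The proneural gene Atoh1 had it in neurons alone. Of 5 SoxC targets, Tubb3, a neuronal tubulin, and Stmn1 had CHD4 in both states. The CHD4 percentiles at Tubb3 were 92.8 in proliferating cells and 87.9 in neurons. H3K4me3 was listed in proliferating cells and neurons at 4 and 5 of the SoxB1 partners and targets and at 4 and 3 of the SoxC targets.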

How the data were processed

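CUT&Tag libraries for CHD4, H3K4me3 and p300 in proliferating iMOPs and iMOP-derived neurons gave 6 peak lists, counted as 1 library each; the 2 IgG libraries were not analysed here. Bowtie2, deepTools, SEACR and the build mm10 are named in the submitters' processing notes, without versions or roles; the use of IgG, duplicate reads and thresholds were not given in the sources used here. Signal values, as the authors deposited them, are total and highest signal per peak on an unstated scale, and were used only to rank peaks within a list. Total signal grows with width, and coordinates run in steps of 50 bp.

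Overlap meant at least 1 bp. Gene spans came from RefSeq (GRCm38.p6). Strand and start came from its promoter table for 6 of the 9 genes. All of that table's 1676 overlapping entries of opposite strand were reverse complements. Shares carry exact Clopper-Pearson 95% intervals. Every member is named with its gene-end peaks and its strongest or widest others; further genes follow lists, and a list of SoxE targets is not reported here. Members and lists were chosen with earlier results of these data known, and the motifs after the peaks were seen. Tools were Python 3.11.15, SciPy 1.17.1, pandas 2.3.3 and numpy 2.4.6; overlap calls were tested on simulated data. Alternatives were stricter or equal-length lists, other overlaps, gene-end windows and flanks.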

Additional observations from a re-analysis of the deposited data

How the results depend on the processing

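Of 126 values recomputed under the alternatives, 113 stayed within 1.5 times the count, or within the interval of the share. Some values could not move in some settings, so the 113 is not a measure of stability. The stronger 50% of each list moved 7 of 18 values. With the stronger 50% of each list, genes with CHD4 at an end numbered 4 in proliferating cells (Sox2, Sox3, Sox8, Sox21) and 2 in neurons (Sox8, Sox21), and those with p300 in proliferating cells 3. In that setting the windows held 8 neuron CHD4, 7 neuron H3K4me3, 8 proliferating p300 and 1 neuron p300 peaks. With lists of equal length, p300 in proliferating cells was at an end of 2 genes, with 4 peaks in the windows, and 20.0% of proliferating CHD4 peaks overlapped it. The neuron share was 33.3% in that setting, so the order of the states was reversed. With flanks of 20 kb, the windows held 9 neuron CHD4 peaks, of which 100% overlapped a proliferating one and 77.8% overlapped H3K4me3, since fewer distal peaks entered. Flanks of 50 kb for every gene, and leaving out flank peaks at ends of other coding genes, were added after seeing the data and moved none of their 24 values past these bounds. The first differs from the main setting only at Sox2. The second could change only the H3K4me3 counts, since no flank CHD4 or p300 peak lay at such an end. Most of the 24 values were therefore fixed in advance. With transcript starts alone, CHD4 was at 6 of 6 genes in the proliferating list and at 5 of 6 in the neuron list. Counts in that setting are out of 6 genes, and were set against main counts out of 9. No paired analysis was possible because each antibody and state has 1 list. Without read depth, an absent peak cannot be told from one below a list's threshold.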
